A study of Mus musculus with 3008 samples.

Results

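The 37 interferon-induced genes described here were followed in regulatory T cells (Tregs), which express Foxp3 and hold immune responses in check. The cells came from spleen and from the lamina propria of the colon, the tissue under its epithelium, in male mice. The genes are 37 of the 23725 in the table and were chosen by name, with earlier results of these data known. They fall into 27 genes typical of the type I interferon response, 3 immunity-related GTPase genes and 7 guanylate binding protein genes. The mice carried the strain B6 Foxp3-Ires-Gfp, in which the Foxp3 locus also makes a green fluorescent protein (GFP), and were 7 months old. Cells sorted as DAPI- TCRb+ CD4+ GFP+ were read by inDrops, which barcodes the messenger RNA of single cells in droplets and counts molecules by unique molecular identifiers (UMIs). Spleen cells gave 1 library and colon cells gave 2, called colon 1 and colon 2. Spleen was dissociated mechanically and colon with collagenase and dispase, so tissue and dissociation cannot be told apart, and the labels give no treatment.

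Interferons are secreted proteins that cells release on sensing infection. Type I interferons bind the Ifnar1 and Ifnar2 receptor chains and, through the kinases Jak1 and Tyk2, activate a factor that contains Stat2 and Irf9 and binds interferon-stimulated response elements in front of antiviral genes. Interferon gamma binds Ifngr1 and Ifngr2 and, through Jak1 and Jak2, acts on genes with gamma-activated sequences, with Irf1 as an early product, and the guanylate binding proteins and immunity-related GTPases are known for their strong response to it. Both signals use Jak1, and many of the 37 genes can answer to either.

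The libraries held 617, 619 and 1772 cells and 1255946, 1253246 and 3916649 UMIs in spleen, colon 1 and colon 2. Levels are UMIs summed over a library per 1000000 UMIs (CPM), from RNA primed at its poly(A) tail. Each tissue is 1 sample, since the labels name no animal, so no test across animals could be made. Values therefore carry 95% intervals of counting error only, and the ratios of colon 1 and colon 2 rest on one spleen library. Foxp3, which the sort selected for, was at 282, 452 and 306 CPM. Between libraries, 25 cell barcodes were shared. The macrophage and dendritic cell marker list summed to 3.98, 24.7 and 49.5 CPM, with 11, 5 and 2 of its 14 markers at 0. Of 23 dissociation and heat-shock genes with a mean level of at least 10 CPM, 10 were higher by 2-fold or more in each colon library. Over all 7956 genes at that level, 8.84% were. The full list of 24 dissociation and heat-shock genes summed to 6921, 12334 and 13164 CPM.

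In colon Tregs most of the 27 type I response genes were lower than in spleen Tregs. Most of the 7 listed guanylate binding protein genes were higher. The family members Gbp8, Gbp9, Gbp10 and Gbp11, outside the list, did not share this, with log2 ratios of colon to spleen from -0.90 to 0.00. The 27 type I genes summed to 3344 CPM in spleen, 2183 CPM in colon 1 and 1922 CPM in colon 2. The 7 guanylate binding protein genes summed to 488, 762 and 814 CPM in the same order. The 3 immunity-related GTPase genes lay between, at 513, 501 and 591 CPM. On the log2 scale the ratio of the type I sum to that of spleen was -0.62 for colon 1 (-0.69 to -0.55) and -0.80 for colon 2 (-0.85 to -0.74). That of the guanylate binding protein sum was 0.64 (0.49 to 0.79) and 0.74 (0.61 to 0.86).

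Of the 27 type I genes, 24 had a mean level of at least 10 CPM, and 9 of these were at least 2-fold lower in both colon libraries: Ifit2, Ifit3, Ifit1bl1, Ifi27l2b, Usp18, Rtp4, Slfn1, Slfn8 and Ifitm3. None was 2-fold higher. Of those lower, Ifit2, Ifit3, Ifit1bl1, Ifi27l2b, Usp18 and Ifitm3 were below 10 CPM in both colon libraries. They thus passed the level filter only through spleen, where they were higher. Over all 7956 genes at that level, 5.27% were 2-fold lower and 8.84% were 2-fold higher in both. The median log2 ratio of the 24 genes was -0.86 in colon 1 and -0.79 in colon 2, against -0.03 and -0.01 over all genes at that level. By counting intervals, 14 of the 24 lay below equality in both colon libraries and 1 above, where 14.9% and 17.1% of all genes did. All 7 guanylate binding protein genes reached the level, 2 of them (Gbp2b and Gbp3) were 2-fold higher in both colon libraries and none lower, and 5 lay above equality by their intervals in both. Their median log2 ratios were 0.65 and 0.68. Gbp2b, at 0.796 CPM in spleen, passed the level filter only through colon.

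**Figure D1:**
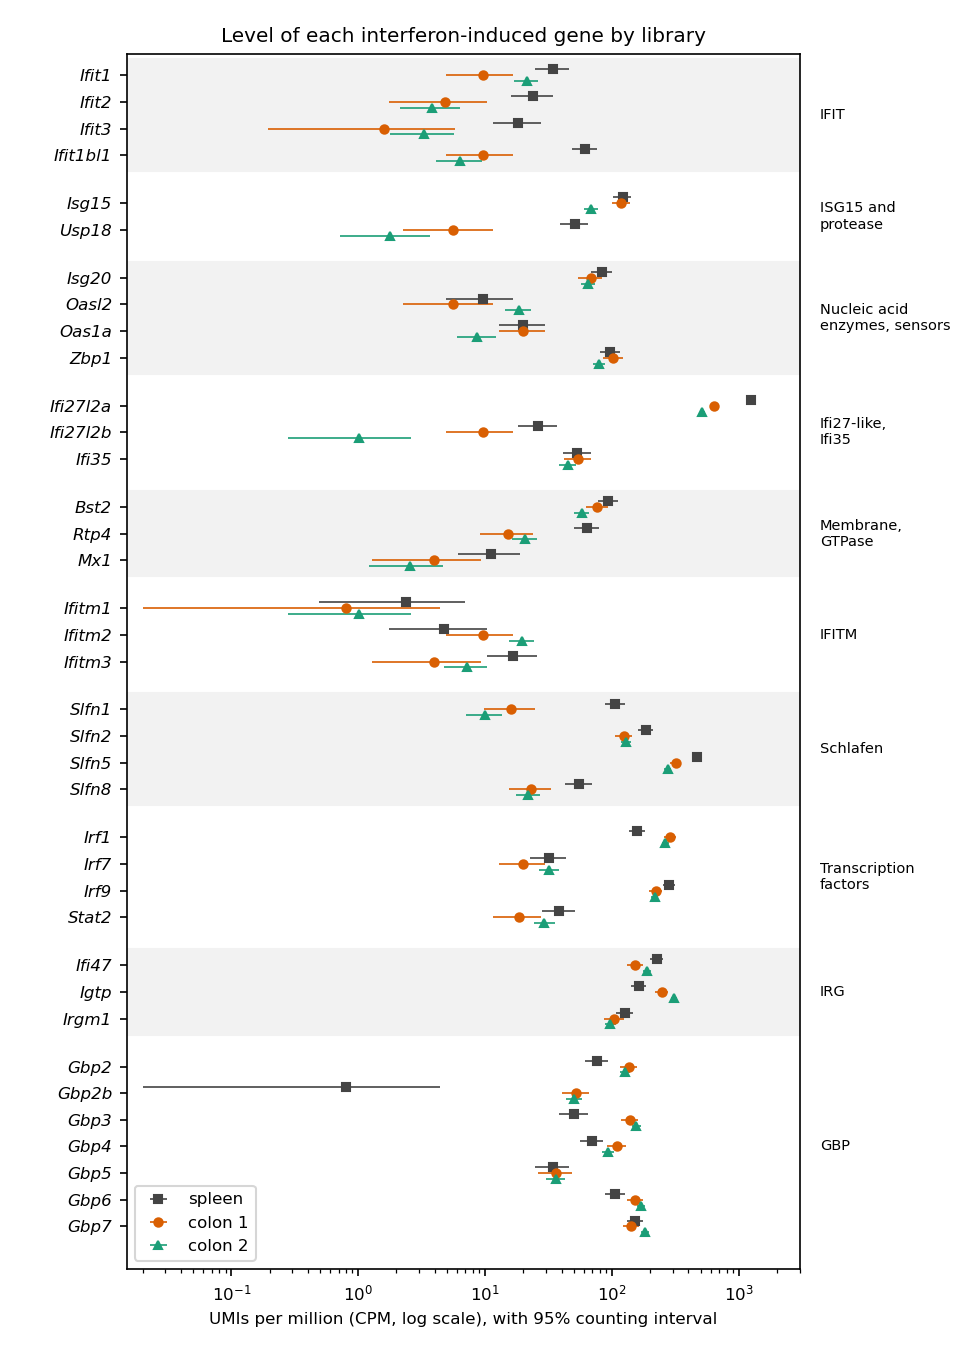
Level of each of the 37 genes in CPM on a log axis, ordered by role, with squares for spleen, circles for colon 1, triangles for colon 2 and bars for the 95% counting interval. Spleen squares lie to the right of the colon symbols for Usp18 and Slfn1, and far to the left for Gbp2b, at 0.796 CPM.

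**Figure D2:**
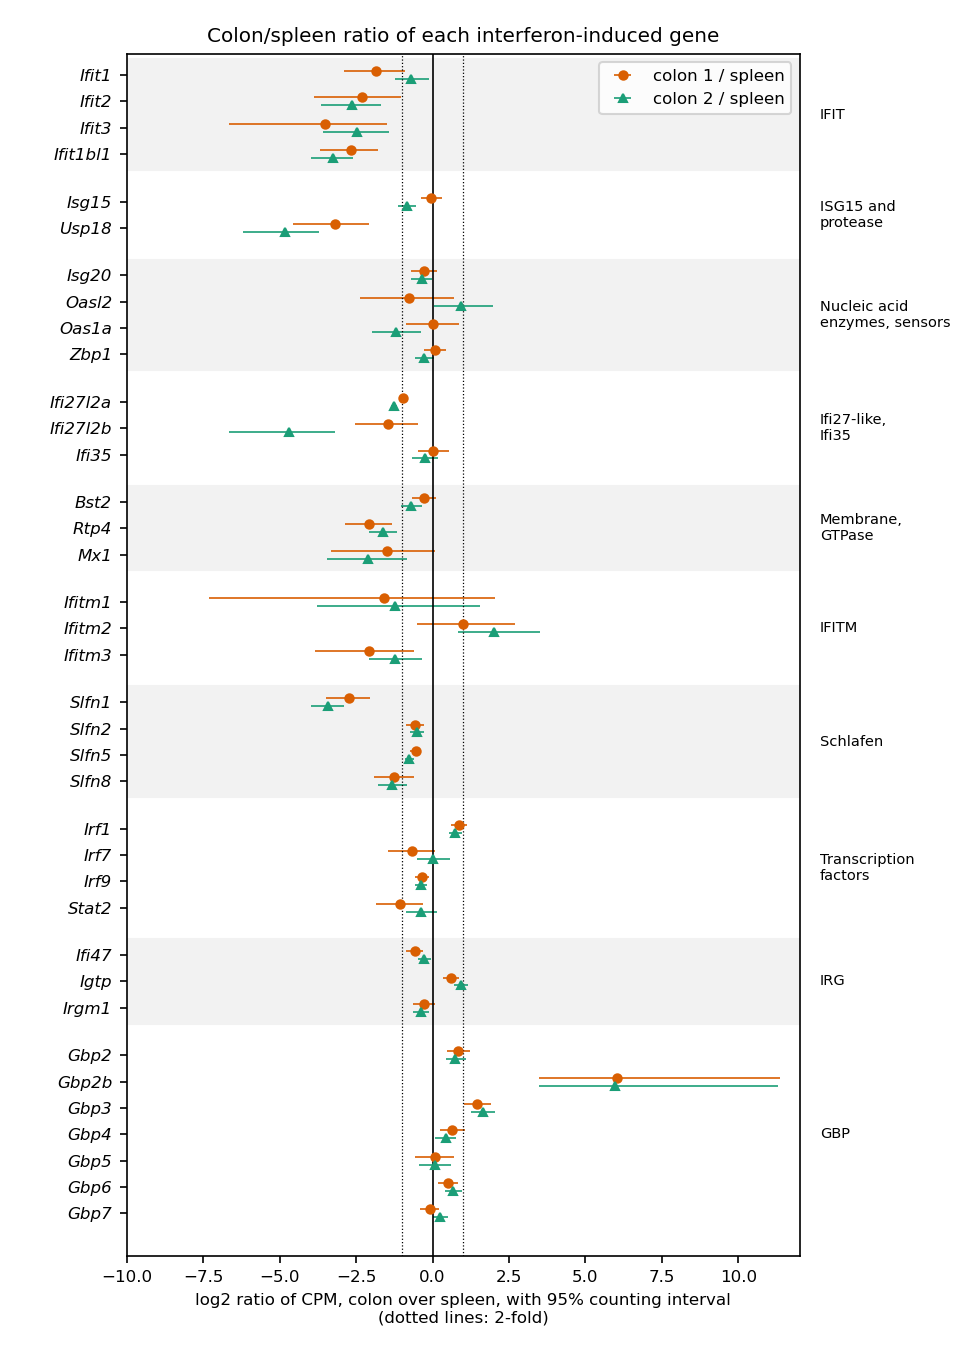
Log2 ratio of colon 1 (circles) and colon 2 (triangles) to spleen for the same genes, with 95% counting intervals and dotted lines at 2-fold. The 9 type I genes past 2-fold lie left of the dotted line, and Gbp2b and Gbp3 lie right of it.

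Promoter sequences were searched for the letters of elements through which the pathway is known to act. Examples of both kinds are printed here because the listed type I and guanylate binding protein genes mostly differed in opposite directions. RefSeq promoter windows (GRCm38.p6) were given for 29 of the 37 genes. The 9 letters GAAANNGAA, the core of an interferon-stimulated response element, were searched on both strands of the 250 bases before the start, as was TTCNNNGAA, a gamma-activated sequence, which reads the same on both strands. Below are the 150 bases up to each start, 5′ to 3′ on the gene's strand, with matches of either motif in capitals.
Isg15 (chr4:156200819-156200968, minus strand): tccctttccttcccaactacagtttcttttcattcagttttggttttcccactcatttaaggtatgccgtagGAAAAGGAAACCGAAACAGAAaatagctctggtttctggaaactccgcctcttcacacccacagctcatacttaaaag
Ifit1 (chr19:34640739-34640888, plus strand): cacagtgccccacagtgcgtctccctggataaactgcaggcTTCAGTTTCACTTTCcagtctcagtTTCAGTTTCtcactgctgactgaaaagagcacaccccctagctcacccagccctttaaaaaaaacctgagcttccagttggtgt
Ifit3 (chr19:34583379-34583528, plus strand): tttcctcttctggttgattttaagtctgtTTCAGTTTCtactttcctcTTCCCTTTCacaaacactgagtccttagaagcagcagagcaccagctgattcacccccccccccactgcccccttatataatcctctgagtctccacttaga
Slfn8 (chr11:83020811-83020960, minus strand): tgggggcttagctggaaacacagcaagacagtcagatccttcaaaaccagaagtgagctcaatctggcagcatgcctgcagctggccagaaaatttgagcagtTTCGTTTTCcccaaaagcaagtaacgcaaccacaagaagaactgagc
Irf1 (chr11:53769864-53770013, plus strand): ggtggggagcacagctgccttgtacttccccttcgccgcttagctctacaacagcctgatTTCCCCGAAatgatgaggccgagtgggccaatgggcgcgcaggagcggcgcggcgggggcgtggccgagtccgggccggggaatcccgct
Igtp (chr11:58199406-58199555, plus strand): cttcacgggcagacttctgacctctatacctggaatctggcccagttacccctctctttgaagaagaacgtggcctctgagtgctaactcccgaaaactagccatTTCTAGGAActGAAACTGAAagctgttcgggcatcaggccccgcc
Gbp2 (chr3:142620513-142620662, plus strand): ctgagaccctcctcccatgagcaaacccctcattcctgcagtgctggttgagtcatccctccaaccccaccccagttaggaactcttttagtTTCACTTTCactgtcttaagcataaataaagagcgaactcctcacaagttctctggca
Gbp2b (chr3:142594697-142594846, plus strand): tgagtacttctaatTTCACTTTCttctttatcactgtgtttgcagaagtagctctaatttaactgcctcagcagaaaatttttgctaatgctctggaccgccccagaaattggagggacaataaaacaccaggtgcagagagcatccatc
Gbp3 (chr3:142559894-142560043, plus strand): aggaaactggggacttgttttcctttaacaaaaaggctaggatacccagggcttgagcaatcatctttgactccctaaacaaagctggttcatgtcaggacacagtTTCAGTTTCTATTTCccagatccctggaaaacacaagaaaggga

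In Isg15 3 overlapping matches of GAAANNGAA ran together, the nearest 66 bases before the start, and in Ifit1 the nearest of 3 lay 84 bases before it. Irf1 held TTCNNNGAA 90 bases before its start and no GAAANNGAA. Igtp held one of each, 34 and 45 bases before its start. The response element core stood in 10 of 21 type I genes, 2 of 3 immunity-related GTPase genes and 5 of 5 guanylate binding protein genes with a window, against 8.18% of 27025 genes. The gamma-activated letters stood in 5 of 21, 1 of 3 and 2 of 5, against 8.13% of genes. Both motifs occurred in 5 of the 29 and neither in 9, among them Slfn1 and Slfn2. Of the type I genes 2-fold lower in colon, Ifit3, Ifit1bl1 and Slfn8 held the response element core and Ifit2, Slfn1 and Ifitm3 did not, while Gbp2b and Gbp3 held it. A match describes letters only. Irf1 and Gbp3 each had a further window at another start, not printed, with no match of either motif.

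The IFIT genes encode proteins that bind foreign RNA, and they lie together on chromosome 19. Ifit1bl1 was at 61.3 CPM in spleen, 9.58 CPM in colon 1 and 6.38 CPM in colon 2, which is 6.4-fold and 9.6-fold lower. Ifit2 was at 23.9, 4.79 and 3.83 CPM. Ifit3 was at 18.3, 1.6 and 3.32 CPM, from 23, 2 and 13 UMIs. In these 3 genes the spleen interval overlapped neither colon interval. Ifit1 was at 34.2, 9.58 and 21.2 CPM, which is 3.58-fold lower in colon 1 and 1.62-fold lower in colon 2. It passed 2-fold with colon 1 alone and not with both, and its log2 ratio between colon 2 and colon 1 was 1.15 (0.27 to 2.16). UMIs of these genes lay in few cells. In spleen 77 of 617 cells held a UMI of any of the 4 genes and 9 held UMIs of 2 or more. In colon 2 the numbers were 50 and 6 of 1772 cells, and in colon 1 they were 17 and 3 of 619. This grouping of the 4 genes was chosen after their values were seen. The 10 cells with the most Ifit3 UMIs held 95.7% of its spleen UMIs, and 1 cell of colon 2 held 18 of the 83 Ifit1 UMIs there. With each cell weighted alike or thinned to 1000 UMIs, Ifit3 dropped below the level filter, with mean log2 ratios of -3.09 and -2.17. Ifit3 shares 31.5% of the 30-base words at its 3′ end with Ifit3b, and Ifit1bl1 shares 27% with Ifit1bl2, so reads could be split between them.

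Isg15, a ubiquitin-like protein joined to other proteins in antiviral cells, and Usp18, the protease that removes it and also damps the type I receptor, went apart. Isg15 was at 121 CPM in spleen, 118 CPM in colon 1 and 68.4 CPM in colon 2. Against spleen its log2 ratio in colon 1 was -0.04 (-0.37 to 0.30), and in colon 2 -0.82 (-1.12 to -0.53). The colon libraries thus differed from each other, by -0.79 (-1.08 to -0.49) on the log2 scale, and the colon 1 interval against spleen included equality. Usp18 was at 51 CPM in spleen, 5.59 CPM in colon 1 and 1.79 CPM in colon 2, which is 9.12-fold and 28.5-fold lower. All 7 of its colon 1 UMIs came from 1 cell, and in spleen 1 cell held 13 of 64. After thinning, 2.94% of spleen cells (1.75% to 4.60%), 0.164% of colon 1 cells (0.00415% to 0.910%) and 0.229% of colon 2 cells (0.0625% to 0.586%) held a Usp18 UMI. Shares of cells with a UMI can include free RNA, and no cell type that lacks these genes was sorted, so that background was not measured here.

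Genes for nucleic acid enzymes and sensors differed little or unevenly. Isg20, an exonuclease, was at 82.8, 67.8 and 64.6 CPM in spleen, colon 1 and colon 2. Zbp1, a sensor of Z-form nucleic acids, was at 96.3, 102 and 79.4 CPM. In both genes the log2 ratio stayed between -0.36 and 0.08. Oas1a, which makes the activator of an RNA-degrading enzyme, was at 19.9, 19.9 and 8.68 CPM, and passed 2-fold with colon 2 alone. It shares 62.8% of its 3′ words with Oas1g, so its counts are uncertain. Oasl2, a relative of it, was at 9.55, 5.59 and 18.4 CPM, from 12, 7 and 72 UMIs, and lay lower in one colon library and higher in the other.

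Ifi27l2a carried much of the type I sum, with 36.9% of its spleen UMIs. The Ifi27-like genes encode small hydrophobic proteins. Ifi27l2a was at 1235 CPM in spleen, 638 CPM in colon 1 and 515 CPM in colon 2, 1.94-fold and 2.4-fold lower, so that colon 1 kept it just short of 2-fold. Thinned cells with an Ifi27l2a UMI made up 52.4% of spleen (48.3% to 56.4%), 33.4% of colon 1 (29.7% to 37.3%) and 30.2% of colon 2 (28.0% to 32.4%). This gene was therefore lower in both the share of cells and the summed level. Without it the type I sum had a mean log2 ratio of -0.52. Its neighbour Ifi27l2b on chromosome 12 was at 26.3, 9.58 and 1.02 CPM, and its colon libraries stood apart by -3.23 (-5.32 to -1.51) on the log2 scale. Ifi35, which binds the partner protein Nmi, was at 53.3, 54.3 and 44.9 CPM, with both ratios including equality.

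Among antiviral membrane and GTPase genes, Rtp4 and Ifitm3 were past 2-fold in both colon libraries. Rtp4 was at 63.7, 15.2 and 20.7 CPM in spleen, colon 1 and colon 2, 4.2-fold and 3.08-fold lower, and its gene span overlaps Masp1 on the other strand. Bst2, the tethering protein that holds budding viruses at the cell surface, was at 93.2, 76.6 and 57.7 CPM. Its log2 ratio was -0.28 (-0.69 to 0.12) and -0.69 (-1.02 to -0.36). Mx1, an antiviral dynamin-like GTPase, was below the level filter, at 11.1, 3.99 and 2.55 CPM. IFITM proteins block viral fusion. Ifitm3 was at 16.7, 3.99 and 7.15 CPM from 21, 5 and 28 UMIs, and its 2-fold call was lost when cells with a UMI were counted in place of UMIs (1.31%, 0.328% and 0.688% of thinned cells). Ifitm2 and Ifitm1 were below the filter. Ifitm2 went the other way, at 4.78, 9.58 and 19.4 CPM, and Ifitm1 had 3, 1 and 4 UMIs. Ifitm2 and Ifitm3 share 39.4% and 27.2% of their 3′ words with other genes.

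Schlafen genes, whose products are tied to T cell quiescence and to limits on translation, lie in one stretch of chromosome 11, and all 4 were lower in colon. Slfn1 was at 106 CPM in spleen, 16 CPM in colon 1 and 9.96 CPM in colon 2, which is 6.64-fold and 10.6-fold lower. Thinned cells with a Slfn1 UMI made up 8.97% of spleen (6.83% to 11.5%), 1.31% of colon 1 (0.568% to 2.57%) and 0.803% of colon 2 (0.440% to 1.34%). Slfn8 was at 54.9, 23.1 and 22 CPM. Its call was lost when cells with markers of other cell types were left out, at a mean log2 ratio of -1.24 with colon 1 just short of 2-fold, and it shares 37.5% of its 3′ words with other Schlafen genes and gene models. Slfn5 was at 467, 318 and 274 CPM and Slfn2, the member known to keep T cells quiescent, at 184, 124 and 129 CPM. Slfn2 and Slfn5 lay below equality with both intervals but not past 2-fold, with log2 ratios from -0.77 to -0.51, and Slfn5 overlaps Slfn5os on the other strand. Slfn1 thus differed by more than Slfn2 and Slfn5, and the smallest of its interval bounds, -2.05, lay beyond their values.

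The transcription factors of the list differed in direction. Irf1, an early product of the interferon gamma signal, was higher in colon, at 157 CPM in spleen, 287 CPM in colon 1 and 263 CPM in colon 2. Its log2 ratios were 0.87 (0.62 to 1.13) and 0.75 (0.53 to 0.97), and it was the 1 type I member above equality in both. When each cell was thinned to 1000 UMIs the mean log2 ratio of Irf1 was 1.14 and it passed 2-fold. Irf9, the DNA-binding part of the type I factor, was at 281, 221 and 216 CPM, a log2 ratio of -0.35 (-0.58 to -0.12) and -0.38 (-0.56 to -0.19). Its partner Stat2 was at 38.2, 18.4 and 29.4 CPM and passed 2-fold with colon 1 alone. Irf7, which drives interferon alpha genes, was at 31.8, 19.9 and 31.9 CPM, with both intervals including equality. Irf9 overlaps Rnf31 on its own strand, and Irf7 overlaps Phrf1 on the other.

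Immunity-related GTPases attack the vacuoles of intracellular microbes, and the 3 genes here differed in direction. Igtp was higher in colon, at 162 CPM in spleen, 247 CPM in colon 1 and 307 CPM in colon 2, with log2 ratios of 0.61 (0.35 to 0.87) and 0.92 (0.71 to 1.15). Ifi47 was at 225, 151 and 187 CPM, with log2 ratios of -0.58 (-0.85 to -0.31) and -0.27 (-0.47 to -0.06), and it overlaps Olfr56 on its own strand. Irgm1, a regulator of the other GTPases, was at 126, 104 and 96.8 CPM, and its colon 1 interval included equality. None of the 3 passed 2-fold. Igtp overlaps Irgm2 on its own strand, and Irgm2, from the list of other interferon gamma targets, was at 31.8, 79.8 and 122 CPM, so part of the count of one could belong to the other.

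Guanylate binding proteins coat and break the vacuoles and membranes of microbes inside cells. Their genes lie at 2 places, with Gbp5, Gbp7, Gbp3, Gbp2b and Gbp2 side by side in that order on chromosome 3 and Gbp4 and Gbp6 on chromosome 5. Gbp2b had 1 UMI among the 1255946 of spleen, which is 0.796 CPM (0.0202 to 4.44). It was at 51.9 CPM (40.03 to 66.1) in colon 1 and 50.3 CPM (43.5 to 57.8) in colon 2, from 65 and 197 UMIs. The ratio was 65.1 and 63.2, with log2 intervals of 3.50 to 11.35 and 3.49 to 11.29 set by the single spleen UMI. Thinned cells with a Gbp2b UMI numbered 0 of 613 in spleen, which allows a share of up to 0.489% if 3 cells are taken as the limit of a count of 0 and of 0.60% by the Clopper-Pearson interval, against 3.61% (2.27% to 5.41%) in colon 1 and 3.44% (2.64% to 4.41%) in colon 2. The most UMIs in 1 cell were 5 in colon 1 and 9 in colon 2, so no single cell made the level. Gbp2b shares none of its 3′ words with other genes.

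Gbp3, next to it, was at 50.2 CPM in spleen, 138 CPM in colon 1 and 156 CPM in colon 2, 2.75-fold and 3.1-fold higher. Thinned cells with a Gbp3 UMI made up 3.26% (2.004% to 4.99%), 10.2% (7.88% to 12.8%) and 11.98% (10.5% to 13.6%). Gbp2, on the other side of Gbp2b, was at 75.6, 135 and 127 CPM, 1.78-fold and 1.68-fold higher. Its share of thinned cells differed less, at 5.38%, 6.89% and 6.77%. Gbp7 was at 152, 142 and 182 CPM and Gbp5, which promotes inflammasome assembly, at 34.2, 35.9 and 36 CPM. Gbp5 and Gbp7, whose mean log2 ratios turned below 0 with totals without ribosomal protein genes, thus stood near their spleen level while the other 3 genes of the chromosome 3 stretch were higher. On chromosome 5, Gbp4 was at 69.3, 109 and 92.9 CPM and Gbp6 at 106, 151 and 170 CPM. Gbp6 shares 93.8% of its 3′ words with other genes, chiefly Gbp10, and Gbp4 shares 33.1% with Gbp6 and others, so neither can be told from its copies with certainty. The further genes Gbp8, Gbp9, Gbp10 and Gbp11, named after their values were seen, had log2 ratios from -0.90 to 0.00 and summed to 174, 140 and 150 CPM. For 6 of the 7 guanylate binding protein genes the interval of the ratio between the colon libraries included equality, as it did for 13 of the 24 type I genes.

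Type I transcripts were found in most cells of each library. In spleen 36.1% of thinned cells (32.2% to 39.99%) held UMIs of at least 3 type I genes, against 16.7% (13.8% to 19.9%) in colon 1 and 15.02% (13.4% to 16.8%) in colon 2. With Ifi27l2a left out the thinned shares were 20.2%, 9.51% and 9.12% in the same order. Without thinning the shares over all type I genes were 61.3%, 39.3% and 40.2%. Cells with none made up 11.4%, 22.0% and 25.3%. The 5% of cells richest in type I UMIs held 18.9% of them in spleen, 19.6% in colon 1 and 21.8% in colon 2. At least 1 guanylate binding protein gene was counted in 28.2%, 36.1% and 40.9% of thinned cells. Spleen cells thus more often held several type I genes, and colon cells more often a guanylate binding protein gene, while the richest cells held a like share of the type I UMIs in each library.

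**Figure D3:**
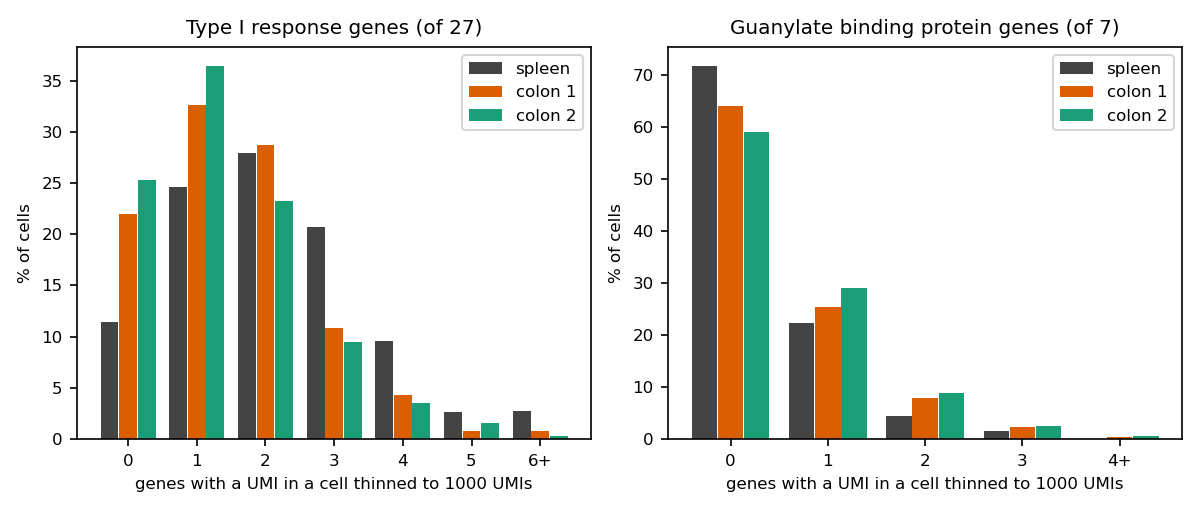
Share of cells (%, linear axis from 0) by the number of type I genes (left) or guanylate binding protein genes (right) with a UMI after thinning each cell to 1000 UMIs, for spleen, colon 1 and colon 2. Cells with 3 or more type I genes are more frequent in spleen (36.1%) than in colon 1 (16.7%) and colon 2 (15.02%), and cells with no guanylate binding protein gene are less frequent in colon.

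To see whether the levels hold across kinds of colon Treg, cells were clustered without the 37 genes and without the other genes of the interferon pathway. Of 6 clusters, cluster 2, with Id3 and Evl among its leading genes, held 98.5% of spleen cells, 14 cells of colon 1 and 23 cells of colon 2. A cluster mostly of 1 library may reflect that library. Colon cells made up cluster 0, led by Igfbp7 and Tmem176b, cluster 1, led by Penk and Il1rl1, cluster 3, led by Ccl4, Hspa1a and Fosb, and cluster 4, led by Ccr7, Hey1 and Bcl6. Cluster 5 held 49 cells led by dividing-cell genes.

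The type I sum was 3330 CPM (3228 to 3434) in spleen cells of cluster 2. In clusters 0, 1, 3 and 4 it ran from 1802 to 2424 CPM in colon 1 and from 1813 to 1975 CPM in colon 2. Each of these colon values lay below the spleen interval, cluster 3 with its heat-shock genes included, at 1802 and 1866 CPM. In colon 1 cluster 3 was the lowest of these clusters, and its interval (1646 to 1969) lay below those of clusters 0, 1 and 4. In colon 2 its interval (1757 to 1979) overlapped theirs. The 23 cells of colon 2 that grouped with spleen cells had 2513 CPM (2067 to 3026), also below the spleen interval. Ifi27l2a in them was at 747 CPM (514 to 1049), against 1214 CPM (1153 to 1277) in spleen cells of the cluster, and Slfn5 was at 475 CPM (294 to 727), against 471 CPM (433 to 511). Slfn1 had 11 of its 20 colon 1 UMIs in cluster 4, at 85.6 CPM (42.7 to 153), while cluster 4 of colon 2 had 13.6 CPM (5.01 to 29.7).

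Guanylate binding protein levels differed between the colon clusters. The sum was 695, 901 and 901 CPM in clusters 0, 1 and 3 of colon 1, and 871, 851 and 863 CPM in those of colon 2. In cluster 4, with Ccr7, it was 335 CPM (242 to 451) in colon 1 and 439 CPM (379 to 505) in colon 2, against 493 CPM (454 to 534) in spleen cells, which overlaps the colon 2 interval and lies above that of colon 1. Cluster 3, where heat-shock genes lead, lay within the range of clusters 0 and 1 in both colon libraries. The immunity-related GTPase sum was also lowest in cluster 4 of these 4 clusters, with 319 and 307 CPM in cluster 4 against 481 to 651 CPM in clusters 0, 1 and 3. Igtp was at 125 CPM (71.2 to 202) and 134 CPM (102 to 173) in cluster 4, against 242 to 373 CPM in the other 3. Irf1 was at 62.3 CPM (26.9 to 123) and 157 CPM (122 to 199) there, against 249 to 363 CPM in the other 3. Its highest levels were in cluster 3, at 342 CPM (276 to 419) in colon 1 and 363 CPM (316 to 415) in colon 2. The type I sum in cluster 4 was 2312 CPM in colon 1, within the range of the other 3, and 1813 CPM (1689 to 1943) in colon 2, the lowest there, with an interval that overlapped those of the other 3. Single guanylate binding protein genes had their own patterns. Gbp3 was highest in cluster 1 among these 4, at 202 CPM (158 to 254) and 210 CPM (186 to 236), where Gbp2b was at 42.0 CPM (23.5 to 69.3) and 13.1 CPM (7.64 to 21.0). Gbp2b was at 80.6 and 65.3 CPM in cluster 0 and at 51.5 and 103 CPM in cluster 3.

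**Figure D4:**
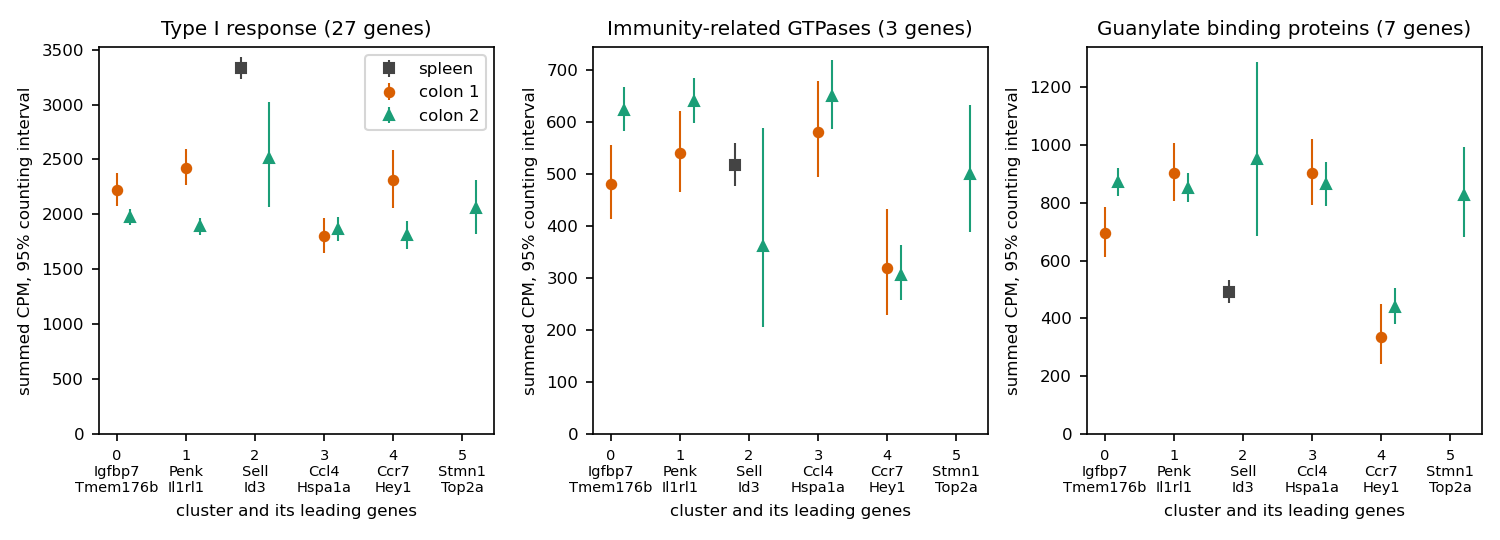
Summed CPM (axis from 0, bars for 95% counting intervals) of the type I, immunity-related GTPase and guanylate binding protein genes by cluster and library, for groups of at least 20 cells. Cluster 4, led by Ccr7, has the lowest guanylate binding protein sums (335 and 439 CPM) and GTPase sums (319 and 307 CPM) of the colon groups, while its type I sums were 2312 and 1813 CPM, the latter the lowest of colon 2.

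Among the receptors and kinases of the pathway, 1 receptor chain and 1 kinase for interferon gamma were more than 3-fold higher in both colon libraries. Ifngr1, the ligand-binding receptor chain, was at 164 CPM in spleen, 1413 CPM in colon 1 and 1449 CPM in colon 2, 8.62-fold and 8.84-fold higher. The 23 colon 2 cells in cluster 2 had 1245 CPM (938 to 1621) of it, against 164 CPM (142 to 188) in the spleen cells of that cluster, and cluster 4 had 1175 and 1178 CPM. Ifngr1 was thus high in each of these colon groups, also where the guanylate binding protein sum was low. Its partner Ifngr2 was at 54.1, 43.9 and 48.5 CPM. Jak2, the kinase that Ifngr2 carries, was at 60.5, 237 and 277 CPM. For type I interferon, Ifnar1 was at 113, 207 and 237 CPM, with log2 ratios of 0.88 (0.58 to 1.18) and 1.07 (0.81 to 1.33), and Ifnar2 was at 76.4, 59.8 and 67.1 CPM. Jak1 was at 592, 476 and 614 CPM and Tyk2 at 27.9, 36.7 and 41.6 CPM.

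Among further transcription factors, Stat3 was at 173, 531 and 572 CPM, and Irf2, which can compete with Irf1, at 98.7, 36.7 and 82.7 CPM. Among the brakes, Socs1, which blocks the Jak kinases and is itself induced by interferon gamma, was at 95.5, 161 and 151 CPM. Socs3 was at 89.2, 147 and 214 CPM. The phosphatase gene Ptpn6 was at 117, 37.5 and 54.4 CPM and Trim24 at 28.7, 11.2 and 13.3 CPM. Socs1 and Socs3 thus lay above their spleen level, and Ptpn6 and Trim24 below it. Of the 8 eligible receptors and kinases 2 were 2-fold higher in both colon libraries (Ifngr1 and Jak2), of the 7 transcription factors 1 (Stat3), and of the 8 brakes 2 were 2-fold lower (Ptpn6 and Trim24), beside 8.84% higher and 5.27% lower over all genes at the filter.

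**Figure D5:**
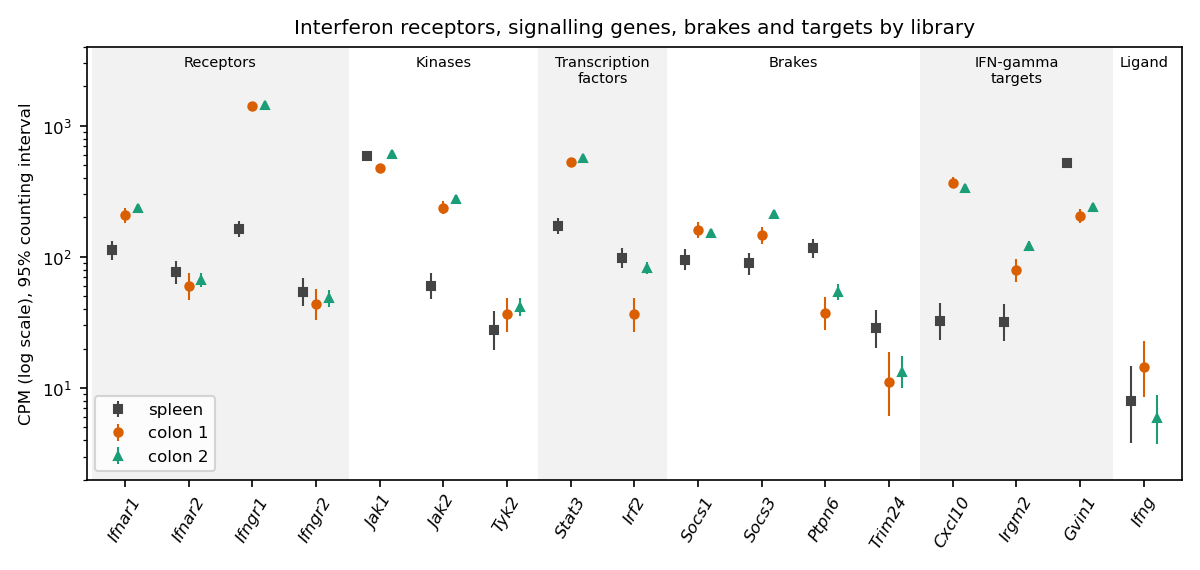
CPM on a log axis with 95% counting intervals for interferon receptors, kinases, transcription factors, brakes, interferon gamma targets and Ifng in spleen, colon 1 and colon 2. Ifngr1 stands at 164, 1413 and 1449 CPM and Cxcl10 at 32.6, 369 and 334 CPM.

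Further type I response genes, listed apart from the 37, were mostly lower. That list too was chosen with earlier results of these data known, so it is no independent check. Of 45 at the level filter, 14 were 2-fold lower in both colon libraries and 1 (Ly6a) higher, beside 5.27% and 8.84% of all genes. The median log2 ratios of the 45 were -0.77 and -0.88. The largest mean log2 differences among the 45 were those of Pydc3 (111, 10.4 and 22.2 CPM), Slfn3 (27.9, 14.4 and 1.28 CPM, not past 2-fold in colon 1) and Pydc4 (31.1, 8.78 and 3.57 CPM). Ly6a, the Sca-1 surface protein, was at 444, 1258 and 1238 CPM. Their sum, 6180.2, 5192 and 6130.5 CPM, did not follow the median in colon 2. Of 8 nucleic acid sensor genes at the filter 1 was 2-fold lower in both, beside 5.27% of all genes: Dhx58, at 17.5, 3.19 and 5.62 CPM. Dhx58 and Pydc4 were below 10 CPM in both colon libraries, so they passed the level filter only through spleen, where they were higher. Tbk1 was at 32.6, 53.5 and 65.9 CPM and Tmem173, which encodes STING, at 186, 99.7 and 122 CPM. Of 19 other interferon gamma targets at the filter, 2 were 2-fold higher (Cxcl10 and Irgm2) and 1 lower (Gvin1), near the 8.84% and 5.27% of all genes, with median log2 ratios of -0.20 and -0.28. Cxcl10, a chemokine, was at 32.6, 369 and 334 CPM, and Gvin1 at 522, 205 and 239 CPM. The sum of that whole list was 9400.1, 9757 and 11441 CPM, so its sum and its median lay on opposite sides of equality. Of 19 interferon genes 17 had no UMI in any library, and Ifng had 10, 18 and 23 UMIs, at 7.96, 14.4 and 5.87 CPM.

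The colon libraries held more UMIs of myeloid markers and dissociation genes, as given above. In the order spleen, colon 1 and colon 2, plasma cell markers were also higher in colon (37.4, 96.5 and 80.2 CPM). Marker sums were lower there for stroma or endothelium (104, 56.7 and 54.9 CPM) and CD8 or natural killer cells (197, 156 and 121 CPM). For B cell markers (92.4, 71.8 and 84.8 CPM) both ratio intervals included equality. Without the 618 cells that held 2 or more markers of other cell types, the guanylate binding protein sum had a mean log2 ratio of 0.76 and the type I sum -0.68. These were 94 of 617 spleen cells, 113 of 619 colon 1 cells and 411 of 1772 colon 2 cells. Markers were counted without thinning, and whether these cells were of other types was not tested. Among plasmacytoid dendritic cell markers, Siglech had 14, 13 and 24 UMIs, and the list's higher colon sum of 241 and 272 CPM, against 91.6 CPM, came with Ccr9 and Runx2 at least 2-fold higher. The part of dissociation in the type I and guanylate binding protein levels was not tested, and it cannot be told apart from tissue here.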

How the data were processed

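The authors deposited 1 table of UMI counts per gene and cell from inDrops libraries sequenced on a NextSeq500, per the labels. TopHat2, SAMtools and mm10 are named in the submitters' processing notes. The sources used here do not give the annotation, the treatment of reads that match several genes, strand use, UMI collapsing or cell filters, and no doublet step was added. All 3008 cell columns held whole numbers and 0 columns were left out.

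Cells were grouped by the library named in the labels. The title of colon 2 says replicate 2, but its sample type says rep1b. The labels thus do not settle whether colon 1 and colon 2 are separate replicates. UMIs were summed per library and scaled to CPM over all genes, with exact Poisson intervals for CPM, exact conditional binomial intervals for ratios and Clopper-Pearson intervals for shares of cells, all at 95% and for counting error only. A gene at 0 was set to 3 counts in ratios. Eligible genes averaged at least 10 CPM over spleen and the colon mean, and a call needed a ratio of 2 in both colon libraries. Simulated counts with known ratios were used to test the calls. Thinning to 1000 UMIs left out 4, 9 and 28 shallower cells. Clusters came from scanpy 1.11.5 with igraph 0.11.9 (10000 UMIs per cell, 2000 variable genes, 20 principal components, 15 neighbours, Leiden resolution 0.8) in Python 3.11.15 with scipy 1.17.1. Shared 30-base words were counted over the last 400 bases of GENCODE vM21 transcripts. Members below 10 CPM are named with their values. The up to 3 eligible genes farthest from equality in each pathway list are named, with the main receptors, kinases, Socs1 and Ifng in every case; some genes are not reported here. The genes and lists were chosen with earlier results of these data known. Alternatives were edgeR 4.0.16 scaling in R 4.3.3, median of ratios, totals without ribosomal protein genes, per-cell means, thinning, left-out cells or libraries, other filters, thresholds and a pseudocount.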

Additional observations from a re-analysis of the deposited data

How the results depend on the processing

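Each tissue is 1 sample, since the labels name no animal, so the intervals limit counting error and say nothing about mice, and genes under about 10 CPM rest on few cells. No paired analysis was possible because the spleen has 1 library and the labels pair it with neither colon library. Median of ratios and edgeR TMM scaling left the 9 lower type I genes and the 2 higher guanylate binding protein genes as the same genes. Leaving ribosomal protein genes, which made up 27.7%, 17.2% and 16.0% of UMIs in spleen, colon 1 and colon 2, out of the totals shifted the median log2 ratio of all genes from -0.04 to -0.27. The mean log2 ratio of the type I sum was then -0.91 and that of the guanylate binding protein sum 0.48, against -0.71 and 0.69. Without the most abundant member, Ifi27l2a or Gbp7, the sums had -0.52 and 0.90. Leaving out a colon library gave 11 lower type I genes and 2 higher guanylate binding protein genes either way, 0 in the opposite direction, and sums from -0.80 to -0.62 and from 0.64 to 0.74. A call then needed the ratio in 1 colon library only. Over all genes at the filter, 9.34% were lower and 11.8% higher without colon 1, and 10.2% and 10.8% without colon 2. At a minimum of 50 CPM, 5 of 15 eligible type I genes were lower, beside 4.45% of all eligible genes. At a threshold of 4-fold, 5 of 24 were lower, beside 0.74% of all. At 4-fold 1 of 7 guanylate binding protein genes (Gbp2b) was higher, beside 3.21% of all. The number of higher type I genes was 1 in place of 0 after thinning (Irf1), at 1.5-fold (Irf1) and with no minimum level (Ifitm2). Cells with 3 or more type I genes made up 61.3%, 39.3% and 40.2% without thinning, in the order spleen, colon 1 and colon 2. With at least 2 genes the shares were 63.9%, 45.4% and 38.2%, and with at least 4 they were 15.3%, 5.90% and 5.50%. Counting cells with a UMI and leaving out cells with shared barcodes were chosen after seeing the data. They gave 9 lower type I genes each, 8 of the same genes by cells with a UMI. Over 333 member values under 9 alternatives, 0 genes past 2-fold changed sign, 14 values of 8 other genes did (Oasl2, Gbp5, Gbp7, Ifi35, Ifitm1, Irf7, Oas1a and Zbp1) within their counting intervals, and 3 moved out of their intervals (Irf1 and Gbp2b when thinned, Gbp3 without cells with other markers). Thinning left Gbp2b at 0 in spleen and Ifitm1 at 0 in colon 1. Each 0 was set to 3 counts, so the thinned ratios of Gbp2b and Ifitm1 rest on that floor.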
